A study of Mus musculus with 4 samples.

Results

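Levels are described for 10 genes through which myelin and scar tissue hold back growing axons, listed in capitals as RTN4, RTN4R, RTN4RL1, RTN4RL2, LINGO1, OMG, PTPRS, RHOA, ROCK1 and ROCK2. They were named as a set and found by symbol in the deposited expression table. Of the 10 genes, 9 had a value at 7 or 21 days post injury (dpi), out of 14718 genes in the table. At 7 dpi 8 of them had a value (of 14125 genes), at 21 dpi 6 had one (of 11472 genes), and 5 had one at both times (of 10879 genes). Rtn4 had no value at either time and was not analysed here. Rtn4rl2 was not analysed at 7 dpi, and Lingo1, Ptprs and Rhoa were not analysed at 21 dpi, for a reason not known here.

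RNA-seq was made from spinal cord segments of about 4 mm that held the lesion of a 50 kdyne contusion. The question was whether the human ApoE isoform alters which genes are expressed at the lesion at 7 and at 21 dpi. The 4 groups were male ApoE3 mice at 7 dpi, male ApoE4 mice at 7 dpi, male ApoE3 mice at 21 dpi and male ApoE4 mice at 21 dpi, all injured at 3 to 5 months of age. All were targeted replacement mice, which carry human ApoE3 or ApoE4 and lack the mouse gene. Their background strain is not given in the sources used here. Neither uninjured cord nor mice with the mouse gene were analysed here, so each value is set only against another injured group. The study's methods give N = 3 mice per group, but the deposited table holds 1 value per gene and group. This leaves the spread between mice unknown here. The authors' own p-values and q-values were not used, so no difference given here has a replicate check.

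Levels are in FPKM (fragments counted relative to transcript length and to all mapped fragments), a unit that corrects for gene length, so that levels of different genes can be set side by side. In the table, the name of each comparison and its ratio put ApoE3 first, whereas the numbering of its sample columns puts ApoE4 first. The former was used here. Under the latter, the names ApoE3 and ApoE4 would be exchanged throughout, in the comparisons between the times too.

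Nogo, the product of Rtn4, and the oligodendrocyte myelin glycoprotein, the product of Omg, sit on the surface of oligodendrocytes and myelin and make axon tips collapse. Both bind the Nogo receptor Rtn4r, which is tethered to the axon membrane by a lipid anchor and signals through partners that cross the membrane, among them Lingo1 and the receptors Ngfr and Tnfrsf19. Ptprs, a receptor tyrosine phosphatase, binds the chondroitin sulfate proteoglycans of the glial scar, and these routes meet at the small GTPase Rhoa, whose kinases Rock1 and Rock2 act on myosin and actin.

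Among the ligands, Omg was at 42.0 FPKM in ApoE3 mice and 35.2 in ApoE4 at 7 dpi, and at 48.5 in ApoE3 and 74.0 in ApoE4 at 21 dpi. It was thus highest in ApoE4 at 21 dpi and lowest in ApoE4 at 7 dpi. Omg lies inside the neurofibromin gene Nf1 on the opposite strand, without shared exons, and the library kit used does not mark the strand. Nf1 was at 121 and 115 FPKM in ApoE3 and in ApoE4 mice at 7 dpi, and at 82.0 and 112 at 21 dpi. Reads from unspliced Nf1 RNA cannot be told apart from reads of Omg in such libraries.

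Of the Nogo receptor family, Rtn4r itself was below Rtn4rl1 at 7 dpi, when Rtn4rl2 was not analysed. Rtn4r was then at 2.33 FPKM in ApoE3 mice and 2.16 in ApoE4. At 21 dpi it was at 5.43 in ApoE3 and 6.28 in ApoE4. Both genotypes were higher at 21 dpi than at 7 dpi. Its homolog Rtn4rl1, which binds chondroitin sulfate proteoglycans, was at 13.1 FPKM in each genotype at 7 dpi, and at 15.2 in ApoE3 and 18.9 in ApoE4 at 21 dpi. The other homolog, Rtn4rl2, a receptor for the myelin-associated glycoprotein, was at 7.22 FPKM in ApoE3 mice and 4.23 in ApoE4 at 21 dpi. It was the only gene of the 6 at 21 dpi with a higher FPKM in ApoE3, before any centring. Rtn4rl1 had 5.60 times the FPKM of Rtn4r in ApoE3 and 6.07 times in ApoE4 at 7 dpi, and 2.80 and 3.00 times at 21 dpi.

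Ptprs stood far above the others, at 2258 FPKM in ApoE3 mice and 2149 in ApoE4 at 7 dpi, above 99.6% of all genes in both groups. Its level was 968 times that of Rtn4r in ApoE3 and 997 times in ApoE4. The co-receptor Lingo1 was at 188 FPKM in ApoE3 mice and 165 in ApoE4 at 7 dpi. The receptor partners in the same complex differed widely in level, with the neurotrophin receptor Ngfr at 1.66 and 1.74 FPKM in ApoE3 and in ApoE4 mice at 7 dpi and Tnfrsf19 at 30.2 and 30.3.

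Inside the cell, Rhoa was at 295 FPKM in ApoE3 mice and 314 in ApoE4 at 7 dpi. Its exons overlap those of Tcta on the opposite strand (45.8 and 44.6 FPKM at 7 dpi), so reads from the shared stretch cannot be told apart. Its kinases Rock1 and Rock2 were at levels near each other. Rock1 was at 34.3 FPKM in ApoE3 mice and 37.9 in ApoE4 at 7 dpi, and at 20.8 in ApoE3 and 38.1 in ApoE4 at 21 dpi. Rock2 was at 26.5 and 25.1 FPKM at 7 dpi, and at 22.6 in ApoE3 and 34.9 in ApoE4 at 21 dpi. Rock1 was above Rock2 in 3 groups, with a ratio of 1.51 in ApoE4 at 7 dpi and 1.09 in ApoE4 at 21 dpi, and below it in ApoE3 at 21 dpi (0.919).

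From high to low, the order at 7 dpi in ApoE3 was Ptprs, Rhoa, Lingo1, Omg, Rock1, Rock2, Rtn4rl1 and Rtn4r, and in ApoE4 Rock1 stood before Omg. At 21 dpi the order in ApoE3 was Omg, Rock2, Rock1, Rtn4rl1, Rtn4rl2 and Rtn4r, and in ApoE4 it was Omg, Rock1, Rock2, Rtn4rl1, Rtn4r and Rtn4rl2. Omg stands first there among 6 genes without Ptprs, Rhoa and Lingo1, the highest of the set at 7 dpi. With 1 value per group, it cannot be said which neighbours in these orders differ beyond the spread between mice.

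**Figure D1:**
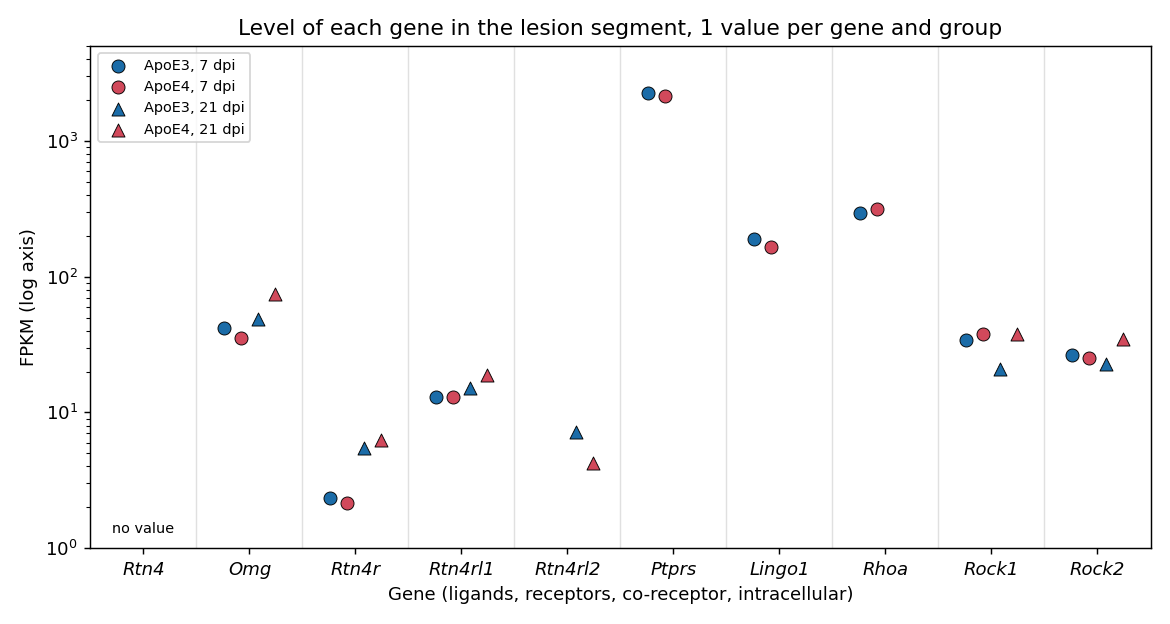
Level of each gene in FPKM on a log axis, with circles for 7 dpi, triangles for 21 dpi, blue for ApoE3 and red for ApoE4, and 1 value per point. Ptprs lies near 2258 FPKM and Rtn4r between 2.16 and 6.28 FPKM, and Rtn4 has no value.

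Genotypes were compared as the log2 ratio of ApoE3 to ApoE4, computed on FPKM plus 1, which understates the ratio of genes at low levels. From each ratio the median of all genes whose FPKM averaged 1 or more was subtracted, and the result is called the centred log2 ratio. A gene was counted past the fold where this came to at least 1.3-fold in either direction. Positive values are higher in ApoE3.

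At 7 dpi none of the 8 genes was past the fold between the genotypes in either direction, where few genes of the table were. Of all genes, 3.76% (531 of 14125) were past it as higher in ApoE3 and 4.82% (681) as higher in ApoE4, so that a count of 0 among 8 genes does not set them apart. The centred log2 ratios of the 8 genes had a median of 0.07 and ran from -0.14 for Rock1 to 0.25 for Omg. The middle of all genes, from the 25th to the 75th percentile, ran from -0.12 to 0.12. Lingo1 (0.19) and Omg (0.25) lay above this range and Rock1 (-0.14) below it. For Omg, 21.4% of all genes had a larger ratio in either direction, so its difference was of a size common in the table. The remaining 5 genes lay within the range, with Rtn4r at 0.08, Rtn4rl1 at -0.00, Ptprs at 0.07, Rhoa at -0.09 and Rock2 at 0.07.

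At 21 dpi the whole table was shifted. The median log2 ratio over all genes was -0.42, 93.8% of the 11472 genes had a lower FPKM in ApoE3, and the summed FPKM was 1.51e+06 in ApoE3 and 2.05e+06 in ApoE4, against 1.67e+06 in each group at 7 dpi. Relative to that median, 2 of the 6 genes were past the fold. Rtn4rl2 was higher in ApoE3 and Rock1 was higher in ApoE4, where 7.46% of all genes (856 of 11472) were past the fold as higher in ApoE3 and 8.06% (925) as higher in ApoE4. Without centring these shares were 2.01% (231) and 58.9% (6753). The uncentred counts of the 6 genes were 1 higher in ApoE3 (Rtn4rl2) and 3 higher in ApoE4 (Omg, Rock1 and Rock2).

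Rtn4rl2 had a centred log2 ratio of 1.08 at 21 dpi (0.65 without centring), a 2.11-fold difference. Only 2.14% of all genes had a larger ratio in either direction. Rock1 had a centred log2 ratio of -0.42 (-0.84 without centring), a 1.34-fold difference, and 13.1% of all genes had a larger ratio. Rock1 was therefore close to the 1.3-fold limit. Omg at -0.18 and Rock2 at -0.18 were lower in ApoE3 with and without centring, within the fold on the centred scale (-0.60 for each without centring). Rtn4r at 0.24 and Rtn4rl1 at 0.13 were higher in ApoE3 only relative to the median of all genes, and without centring their direction was the opposite (-0.18 and -0.29). The median of the 6 centred ratios was -0.02.

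**Figure D2:**
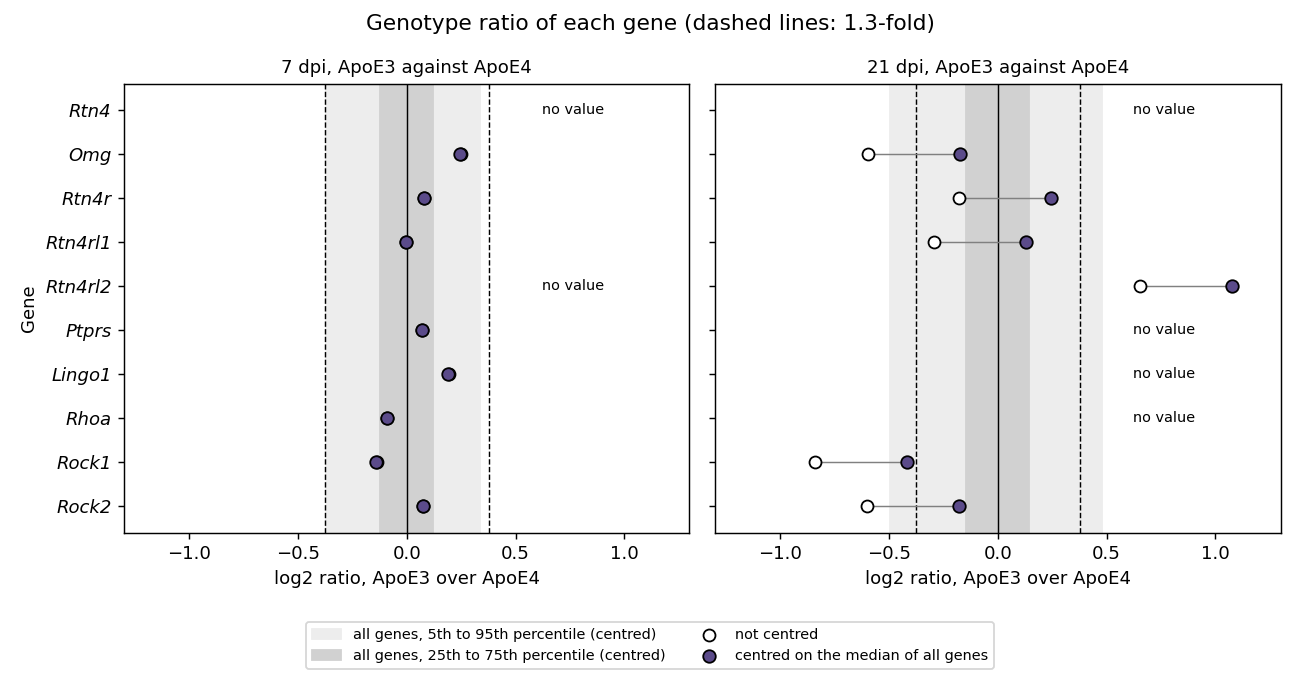
Log2 ratio of ApoE3 to ApoE4 for each gene at 7 dpi (left) and 21 dpi (right), with filled points centred on the median of all genes and open points not centred. Grey bands hold the 25th to 75th and the 5th to 95th percentile of the centred ratios of all genes, and dashed lines mark 1.3-fold. At 21 dpi Rtn4rl2 (1.08) and Rock1 (-0.42) lie past the lines, and Rtn4r and Rtn4rl1 lie on the other side of 0 without centring.

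Markers of other tissues and cell types also differed between the genotypes at 21 dpi. A spinal cord segment is a mixture of cells, in which fewer cells of a type and less RNA per cell cannot be told apart. In the same direction as Rtn4rl2, 9 of 10 markers of sensory ganglion neurons had a value, all 9 had a centred ratio above 0 (one of them, Calca, below 0 without centring), 8 were past the fold as higher in ApoE3, and their median was 2.16. Their summed FPKM was 810.3 in ApoE3 and 839 in ApoE4, carried by Calca (702 and 829.5), whereas the sodium channel gene Scn10a was at 20.1 in ApoE3 and 0.153 in ApoE4. Trpv1 and Mrgprd were listed at 0 in ApoE4, at 1.61 and 1.80 FPKM in ApoE3. How genes came to be listed is not known here. Genes this low in ApoE4 may be listed only through ApoE3, which would fix their direction in advance. The counts and the median of this list are limited by this.

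Schwann cell markers lay in the same direction, with 5 of the 7 that had a value (of 8) past the fold as higher in ApoE3 and none as higher in ApoE4 (5 and 1 without centring), a median of 1.71, and a summed FPKM of 2545 in ApoE3 and 1614 in ApoE4. Pmp22 was the most abundant of them (1970.0 and 992 FPKM). Cldn19 was at 18.6 FPKM in ApoE3 mice and 0.188 in ApoE4, so that it too may be listed only through ApoE3. Fibroblast markers had a median of 0.67, with 5 of 7 past the fold as higher in ApoE3 and none as higher in ApoE4 (3 and 1 without centring), and a summed FPKM of 573 and 590.4 in ApoE3 and ApoE4, most of it from Fn1. Several of those past the fold were at low levels, namely Col1a1 (2.44 and 2.27 FPKM), Col3a1 (2.31 and 1.79) and Lum (1.44 and 0.675). Col3a1 gave the median, and Col1a1 had a ratio of 0.08 without centring. Dcn was at 61.9 and 9.37 FPKM. The part of these tissues in the result for Rtn4rl2 was not tested. At 7 dpi, where Rtn4rl2 was not analysed, the 4 Schwann cell markers with a value had a median of 0.06 and a summed FPKM of 1037 in ApoE3 and 1001 in ApoE4. At that time 3 of 10 sensory ganglion markers had a value, with a median of 0.48 and a summed FPKM of 484 and 364.

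The 4 marker lists with medians furthest in the direction of Rock1, higher in ApoE4 at 21 dpi, were those of astrocytes, microglia and macrophages, skeletal muscle and liver. Astrocyte markers had a median of -0.35, with 2 of 8 past the fold (none the other way, and 8 of 8 without centring), and a summed FPKM of 11284 in ApoE3 and 20591 in ApoE4, led by Gfap. Microglia and macrophage markers had a median of -0.34, with 3 of the 7 that had a value (of 10) past the fold (7 of 7 without centring), and summed to 566 and 1055 FPKM, led by Lyz2. Skeletal muscle markers (7 of 10 with a value, all 7 past the fold) had a median of -3.85 and summed to 33.0 and 723 FPKM, led by Tnnt3, and the muscle myosin gene Myh4 was listed at 0 in ApoE3. Liver markers (7 of 10 with a value, all 7 past the fold) had a median of -2.32 and summed to 10.7 and 129 FPKM, led by Apoa2. All 7 of each were past the fold without centring too, where 58.9% of all genes were past it as higher in ApoE4. Several were near 0 in ApoE3, such as Alb (0.0931 and 5.36 FPKM in ApoE3 and in ApoE4) and Ahsg (0.182 and 15.8). Such genes, Myh4 among them, may be listed only through ApoE4, which would fix their direction in advance. The muscle and liver counts and medians are limited by this. The part of these 4 lists in the result for Rock1 was not tested.

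Neurons and oligodendrocytes both make Omg. Neuron markers had a median of 0.26 at 7 dpi, where 11 of the 12 had a value all 11 were above 0 and 2 were past the fold as higher in ApoE3, and -0.13 at 21 dpi, where 2 of 9 were past it as higher in ApoE4 and 7 of 9 without centring. Oligodendrocyte markers had a median of 0.11 at 7 dpi, within the middle range of all genes. Of these markers 4 were then above 0 and 3 below, with the abundant Mbp (-0.08) and Mobp (-0.05) among the latter. At 21 dpi their median was -0.13 and all 9 with a value were below 0. On the centred scale 1 was past the fold as higher in ApoE4 and, without centring, all 9 were, beside 58.9% of all genes. Omg followed the order of these medians, with a centred ratio of 0.25 at 7 dpi and -0.18 at 21 dpi. The summed FPKM of the neuron markers was 10194 in ApoE3 and 7967 in ApoE4 at 7 dpi, led by Map2, and 11357 and 17564 at 21 dpi, led by Snap25. That of the oligodendrocyte markers was 127292 and 134397 at 7 dpi and 228230.0 and 321780.0 at 21 dpi, led by Mbp. Their part in the values of Omg and the receptors was not tested. Endothelial markers had a median of -0.02 at 7 dpi and 0.11 at 21 dpi (-0.31 without centring). At 7 dpi the medians of the other lists were 0.08 for astrocytes, -0.28 for microglia and macrophages, -0.36 for fibroblasts, 0.06 for Schwann cells and 0.31 for skeletal muscle, and no liver marker had a value.

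Other genes of the pathway were taken from 4 lists of 40 genes in all. At 7 dpi 36 of them had a value, with a median centred ratio of -0.01, 2 past the fold as higher in ApoE3 and none as higher in ApoE4, where 3.76% and 4.82% of all genes were. At 21 dpi 30 had a value, with a median of -0.02, 3 past the fold as higher in ApoE3 and 1 as higher in ApoE4, where 7.46% and 8.06% of all genes were. Without centring the balance turned, with 1 of the 30 past the fold as higher in ApoE3 (Ngfr) and 17 as higher in ApoE4, beside 2.01% and 58.9% of all genes, and 27 of the 30 were lower in ApoE3.

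Of the receptor partners and further ligands (11 of 12 with a value, median 0.07 at 7 dpi and -0.01 at 21 dpi), 2 were past the fold at 21 dpi, both as higher in ApoE3, and none at 7 dpi. Without centring 1 was past it at 21 dpi as higher in ApoE3 and 6 as higher in ApoE4, beside 2.01% and 58.9% of all genes. Ngfr, a partner of Rtn4r that is also made by Schwann cells and sensory neurons, was at 8.09 FPKM in ApoE3 mice and 1.91 in ApoE4 at 21 dpi, with a centred log2 ratio of 2.07. This is the direction of the Schwann cell and sensory ganglion markers given with Rtn4rl2, whose part in it was not tested. Tnfrsf19, which can take the place of Ngfr in the complex, was at 24.5 FPKM in ApoE3 mice and 37.5 in ApoE4, with a centred ratio of -0.17. Ptprf, a relative of Ptprs that also binds chondroitin sulfate proteoglycans, was at 381 FPKM in ApoE3 mice and 336 in ApoE4 at 21 dpi, with a centred ratio of 0.60 (0.18 without centring). At 7 dpi the ratio furthest from 0 in this list was that of Crtac1, whose product keeps Nogo from binding its receptor, at 283 FPKM in ApoE3 mice and 218 in ApoE4 (0.37). Mag, the gene of the myelin-associated glycoprotein, had no value at either time and was not analysed here.

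The family paralogs, 3 reticulons and 3 relatives of Lingo1, had a median of 0.24 over the 5 with a value at 7 dpi and -0.04 over 4 at 21 dpi. Lingo2 was the one gene of the 4 lists past the fold at both times, in opposite directions. It was at 110.5 FPKM in ApoE3 mice and 68.8 in ApoE4 at 7 dpi (centred ratio 0.67), and at 87.4 in ApoE3 and 193 in ApoE4 at 21 dpi (-0.71). Its ratio at 21 dpi minus that at 7 dpi was -1.38, and 1.08% of the 10879 genes with values at both times had a larger difference in either direction. Lingo4 was also past the fold at 7 dpi, at 8.44 FPKM in ApoE3 mice and 6.23 in ApoE4 (0.38), just above the limit. Rtn3, a reticulon relative of Nogo, was at 2067 and 1886 FPKM at 7 dpi (0.13).

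All 6 chondroitin sulfate proteoglycan genes had values at both times, and on the centred scale none was past the fold between the genotypes at either (median -0.11 at 7 dpi and -0.05 at 21 dpi). Of all genes, 3.76% were past it as higher in ApoE3 and 4.82% as higher in ApoE4 at 7 dpi, and 7.46% and 8.06% at 21 dpi. Without centring all 6 were lower in ApoE3 at 21 dpi (median -0.47), as were 93.8% of all genes. Ncan, Vcan and Cspg5 were then past the fold as higher in ApoE4, beside 58.9% of all genes. Brevican (Bcan) was the most abundant, at 549 FPKM in ApoE3 mice and 606 in ApoE4 at 7 dpi and at 925 and 1193 at 21 dpi. The furthest from 0 was Cspg4 at 7 dpi (-0.30), at 12.7 FPKM in ApoE3 mice and 15.8 in ApoE4, and Cspg5 at 21 dpi (-0.24), at 101 and 160.3.

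Of the targets of Rock1 and Rock2, 14 of 16 had a value at 7 dpi (median -0.02) and 9 at 21 dpi (median -0.02). Myl9, a regulatory light chain of myosin in smooth muscle, was the single one past the fold on the centred scale, at 53.4 FPKM in ApoE3 mice and 47.5 in ApoE4 at 21 dpi (0.59, and 0.16 without centring). Of all genes, 7.46% were past it in that direction at 21 dpi. Without centring Myl9 was within the fold, and 6 of the 9 (Cfl2, Ppp1r12b, Myl12a, Myl12b, Dpysl2 and Msn) were past it as higher in ApoE4. So were 58.9% of all genes, so that this count does not set the targets apart.

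**Figure D3:**
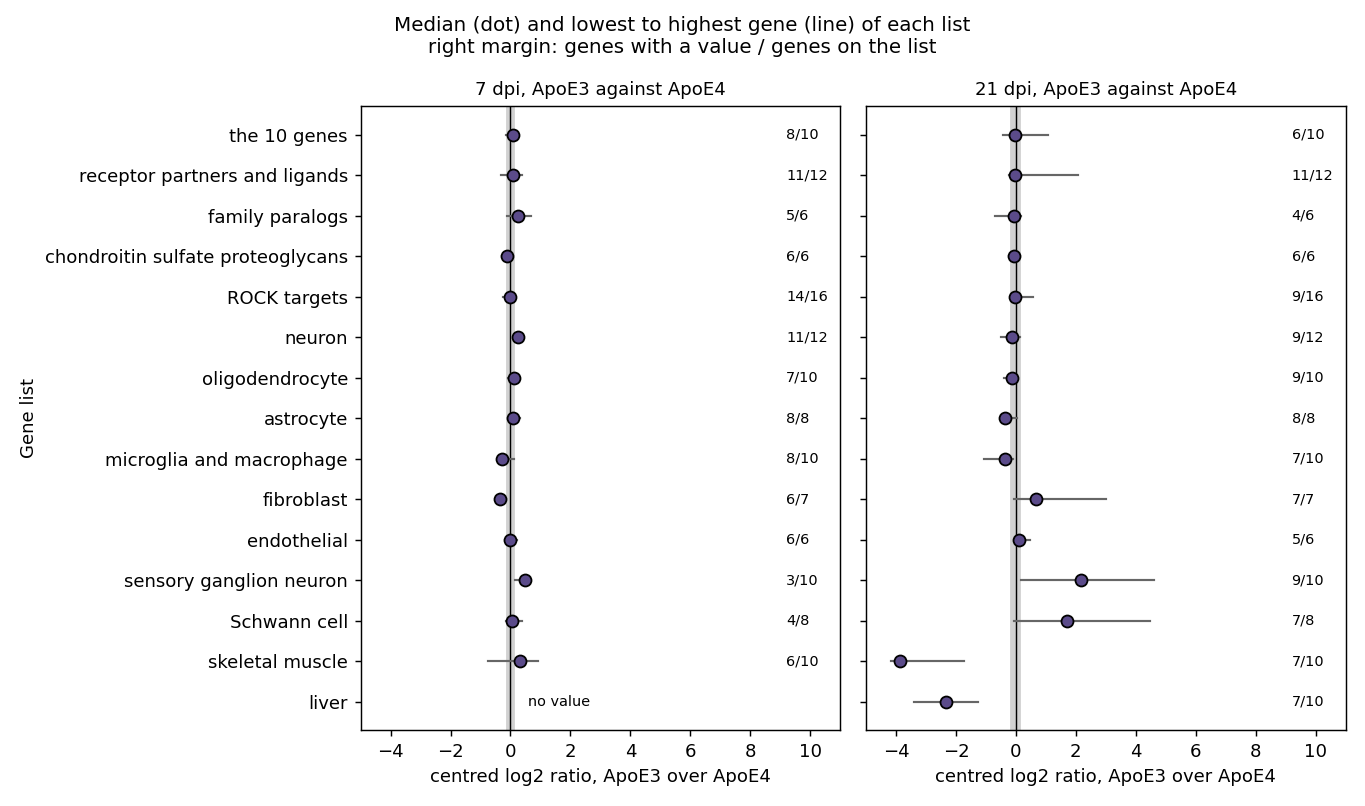
Centred log2 ratio of ApoE3 to ApoE4 for each gene list at 7 dpi (left) and 21 dpi (right), with the median as a point, the lowest to the highest gene as a line, and the 25th to 75th percentile of all genes as a grey band. The pathway lists have medians between -0.11 and 0.24, while at 21 dpi those of sensory ganglion neurons (2.16), Schwann cells (1.71), skeletal muscle (-3.85) and liver (-2.32) lie far from 0.

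Levels at 21 dpi were also set against those at 7 dpi within each genotype, with positive ratios higher at 21 dpi. Whether the values of both times were normalized together is not given in the sources used here, and these ratios were not tested. Over all 10879 genes the median log2 ratio was 0.09 in ApoE3 and 0.53 in ApoE4, and ratios were centred on it. Differences between the times were common. In ApoE3, 26.6% of genes (2890) were past the fold as higher at 21 dpi and 27.7% (3015) as higher at 7 dpi, and in ApoE4 the shares were 26.1% (2844) and 28.6% (3113). Without centring they were 31.3% (3408) and 23.6% (2563) in ApoE3, and 59% (6420) and 10.9% (1183) in ApoE4.

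Rtn4r was past the fold as higher at 21 dpi in both genotypes, with a centred log2 ratio of 0.86 in ApoE3 and 0.68 in ApoE4. A larger ratio in either direction was found in 18.4% of all genes in ApoE3 and in 29.3% in ApoE4. Rock1 was past the fold as higher at 7 dpi in both, at -0.79 in ApoE3 and -0.52 in ApoE4, but without centring it was equal at both times in ApoE4 (0.00, with 37.9 and 38.1 FPKM). Omg was past the fold as higher at 21 dpi in ApoE4 (0.52) and not in ApoE3 (0.11), a difference that was not tested. On the centred scale 2 of the 5 genes were past the fold in ApoE3 (1 in each direction) and 3 of 5 in ApoE4 (2 higher at 21 dpi and 1 at 7 dpi), beside background shares of 26.1% to 28.6% of all genes in each direction. Without centring the counts in ApoE3 were the same, and in ApoE4 4 of the 5 (Rtn4r, Rtn4rl1, Omg and Rock2) were past it as higher at 21 dpi and none as higher at 7 dpi, beside 59% and 10.9% of all genes.

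Rtn4rl1 and Rock2 lay within the fold in both genotypes on the centred scale. Rtn4rl1 had a centred ratio of 0.12 in ApoE3 and -0.03 in ApoE4 (0.50 without centring), and Rock2 of -0.31 in ApoE3 and -0.07 in ApoE4 (0.46 without centring). The direction of Rock1, Rock2 and Rtn4rl1 in ApoE4 was thus the opposite without centring, with Rock1 next to 0.

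Marker lists also differed between the times. Fibroblast markers (6 of 7 with a value at both times) lay furthest towards 7 dpi, with a median of -3.02 in ApoE3 and -4.36 in ApoE4, and 5 and 6 of the 6 past the fold as higher at 7 dpi. Their summed FPKM was 664 in ApoE3 and 851 in ApoE4 at 7 dpi and 119 and 79.1 at 21 dpi. Col1a1 led them at 7 dpi (212 and 270 FPKM) but was at 2.44 and 2.27 at 21 dpi, when Dcn led in ApoE3 (61.9) and Pdgfra in ApoE4 (58.8). The sum in ApoE4 at 21 dpi was thus mostly that of Pdgfra and not of the collagen genes. Microglia and macrophage markers (7 of 10) had a median of -1.80 in ApoE3 and -1.72 in ApoE4, and summed to 6179 and 8015 FPKM at 7 dpi and to 566 and 1055 at 21 dpi. Astrocyte markers (8 of 8) had a median of -0.51 in ApoE3 and -0.18 in ApoE4, the latter with the opposite sign without centring (0.34).

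Towards 21 dpi lay the neuron markers (9 of 12), with a median of 0.64 in ApoE3 and 1.13 in ApoE4. Oligodendrocyte markers (7 of 10) had a median of 0.01 in ApoE3 and 0.45 in ApoE4, endothelial markers (5 of 6) of 0.10 and 0.03, and Schwann cell markers (4 of 8) of 0.87 and 0.23. The 2 sensory ganglion markers with values at both times had a median of 0.87 in ApoE3 and 0.51 in ApoE4. Skeletal muscle markers (5 of 10) lay in opposite directions, at -1.03 in ApoE3 and 3.00 in ApoE4, and no liver marker had a value at both times. The part of these cell types and tissues in the values of Rtn4r, Omg and Rock1 was not tested.

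**Figure D4:**
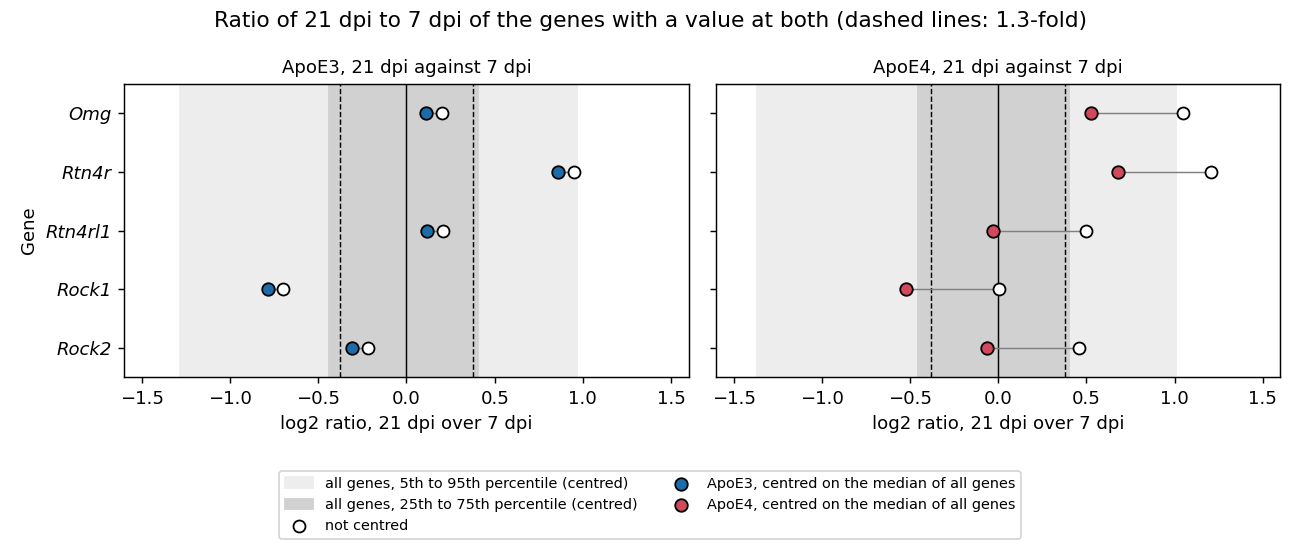
Log2 ratio of 21 dpi to 7 dpi for the 5 genes with a value at both, in ApoE3 (left) and ApoE4 (right), with filled points centred on the median of all genes and open points not centred. Grey bands hold the 25th to 75th and 5th to 95th percentile of all genes. Rtn4r lies past the dashed 1.3-fold line in both (0.86 and 0.68), and Rock1 past it in the other direction (-0.79 and -0.52) only when centred in ApoE4.

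Of the 30 genes of the 4 pathway lists with values at both times, 10 were past the fold as higher at 21 dpi and 10 as higher at 7 dpi in ApoE3, and 10 and 10 in ApoE4, beside the 26.1% to 28.6% of all genes given above. Without centring the counts were 11 and 8 in ApoE3 and 15 and 5 in ApoE4, beside 31.3% and 23.6% of all genes in ApoE3 and 59% and 10.9% in ApoE4. Pirb, a receptor of immune cells and neurons that binds Nogo and the Omg product, was at 57.6 and 68.2 FPKM in ApoE3 and in ApoE4 mice at 7 dpi and at 8.72 and 10.9 at 21 dpi. S1pr2, another receptor for Nogo, was at 14.6 and 18.5 FPKM at 7 dpi and at 3.08 and 3.53 at 21 dpi. Both were higher at 7 dpi, with and without centring, in the direction of the fibroblast markers and of the microglia and macrophage markers, whose part in this was not tested.

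Crtac1 was higher at 21 dpi, at 596 FPKM in ApoE3 mice and 926 in ApoE4, with centred ratios of 0.98 and 1.55 against 7 dpi. Among the scar ligands, versican (Vcan) was at 155 and 183 FPKM in ApoE3 and in ApoE4 mice at 7 dpi and at 40.5 and 60.9 at 21 dpi, and neurocan (Ncan) at 43.6 and 45.9 and then at 15.7 and 24.6. Brevican was higher at 21 dpi in both genotypes, with centred ratios of 0.66 in ApoE3 and 0.45 in ApoE4. Of the targets of Rock1 and Rock2, moesin (Msn) was at 84.1 and 96.1 FPKM at 7 dpi and at 36.7 and 55.3 at 21 dpi.

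The pattern of each gene over the 4 groups was compared by its log2 levels, after the median of each group and the gene's own mean were subtracted, among 10864 genes with values at both times that averaged 1 FPKM or more. Of the 5 genes, Rtn4r had the widest range over the groups (1.04 log2 units), followed by Rock1 (0.82), Omg (0.63), Rtn4rl1 (0.24) and Rock2 (0.19). The genes most like Rtn4r were Mrps27, Lyrm1, Usp10, Mcm3ap and Gm13446, at distances of 0.02 to 0.04 log2 units over 4 groups. Among 10864 genes with 4 values each, near matches can arise without any relation, and shared regulation was not tested. Mrps27 was at 29.2 and 28.0 FPKM in ApoE3 and in ApoE4 mice at 7 dpi and at 57.4 and 66.0 at 21 dpi. Among the other 4 genes of the set alone, the nearest was Omg for Rtn4r (0.55), Rtn4rl1 for Omg (0.39) and Rock2 for Rock1 (0.52), and Rtn4rl1 and Rock2 were nearest to each other (0.32).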

How the data were processed

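RNA was measured in lesion segments of male mice in 4 groups (ApoE3 and ApoE4, at 7 and 21 dpi). The authors sequenced libraries made with a TruSeq kit that does not mark the strand and down-sampled them to equal read numbers. The submitters' processing notes name STAR 2.5.4b, Bowtie2 2.1.10, SAMtools 0.1.7 and Cuffdiff 1.3.0. The genome build and annotation are not given in the sources used here. The authors deposited FPKM plus 1, as 1 value per gene and group, in a table of 25601 rows, from which 1 was subtracted here. Columns of the authors' own comparisons (fold changes, p-values and q-values), and a table of the genes they called, were not used. The study says that 1 replicate aligned less well than the rest, and its group is not known here. Single mice were not analysed here. FPKM keeps no read numbers, so the depth behind each gene is unknown and no counting error is given.

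Symbols were matched in any letter case, and 3 symbols on 2 rows were averaged. Log2 ratios were computed on FPKM plus 1 and centred on the median of all genes whose FPKM averaged 1 or more. At least 1.3-fold counted as past the fold, with no test, since 1 value per group gives no spread. The steps were tested on simulated data. The members and lists were chosen with earlier results of these data known. Named were all 10 genes, then of each of 4 pathway lists (receptor partners and ligands, family paralogs, chondroitin sulfate proteoglycans, targets of Rock1 and Rock2) up to 3 genes with the largest ratios per comparison, plus Ngfr, Tnfrsf19 and Mag. A few more list genes were named after their values were seen, namely Rtn3, the overlapping genes Nf1 and Tcta, and the markers given by level. Marker lists covered neurons, oligodendrocytes, astrocytes, microglia and macrophages, fibroblasts, endothelium, sensory ganglion neurons, Schwann cells, skeletal muscle and liver. Another pathway list and 1 of the markers are not reported here and entered no list count, median or sum. For likeness, the 5 nearest genes by Euclidean distance were named for the gene with the widest range. Alternatives were a pseudocount of 0.1, no centring, a minimum mean FPKM of 5, and minimum folds of 1.2 and 1.5. GENCODE vM21 served only to see which genes overlap, and all 10 symbols matched it. Computations used Python 3.11.15, numpy 2.4.6, pandas 2.3.3 and matplotlib 3.10.9.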

Additional observations from a re-analysis of the deposited data

Results flagged for a closer look

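The centred ratios of 3 of the 5 genes with a value at both times had opposite signs at 7 and at 21 dpi. Which genes these were depends on the centring, since without it Rtn4rl1 kept its sign (-0.00 and -0.29), Rtn4r did not (0.08 and -0.18), and Omg (0.25 and -0.60) and Rock2 (0.08 and -0.60) had opposite signs as before. For Omg, the log2 ratio of ApoE3 to ApoE4 was 0.25 at 7 dpi and -0.18 at 21 dpi, a difference of -0.42, and 18.9% of the 10879 genes with values at both times had a larger one in either direction. For Rock2 the ratios were 0.07 and -0.18, a difference of -0.25, with 39.0% of genes at a larger one. For Rtn4rl1 they were -0.00 and 0.13, a difference of 0.14, with 62.9% of genes at a larger one. At 7 dpi Rtn4rl1 was at 13.1 FPKM in each genotype, too near to equal to have a direction. The share of all genes with opposite signs at the times was not computed here, so the count of 3 does not set these genes apart. Between the genotypes, the ratio of 21 dpi to 7 dpi of Rtn4rl1 was 0.12 in ApoE3 and -0.03 in ApoE4 (0.21 and 0.50 without centring), a difference of -0.15. None of these differences was tested, since each group has 1 value.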

How the results depend on the processing

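At 7 dpi no gene was past the fold under any of the 5 alternatives run, and the median stayed at 0.07. At 21 dpi, without centring, 4 of the 6 genes were past the fold and their median was -0.45 (main values 2 and -0.02), beside 2.01% of all genes past it as higher in ApoE3 and 58.9% as higher in ApoE4. At a minimum fold of 1.5, 1 gene (Rtn4rl2, higher in ApoE3) was past it, as were 3.53% of all genes in that direction and 3.67% in the other. For 21 dpi against 7 dpi in ApoE3, a minimum mean FPKM of 5 left out Rtn4r, so that 1 of 4 genes was past the fold (Rock1, higher at 7 dpi, as were 28.0% of the 9550 genes kept) and the median was -0.11 (main values 2 of 5 and 0.11). In ApoE4 the median was 0.50 without centring (main value -0.03), 1 gene (Rtn4r, higher at 21 dpi) was past a fold of 1.5 (main value 3), as were 16.4% of all genes in that direction and 19.3% in the other, and the ratio of Rock1 was 0.00467 without centring in place of -0.52, with the opposite sign. These follow from how each alternative is built. Of the 24 single-gene ratios, 21 stayed within 0.1 log2 units with a pseudocount of 0.1 and 3 moved further (Rtn4rl2 at 21 dpi, and Rtn4r between the times to 1.09 in ApoE3 and 0.94 in ApoE4). Without centring 13 stayed, and with a minimum mean FPKM of 5 all 21 that could be computed did. Reads per gene are not known here, and genes at a few FPKM, such as Rtn4r, Rtn4rl2 and Ngfr, rest on the fewest reads for their length. No paired analysis was possible because each group has 1 value.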

Other observations

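Ptprs was the most abundant of 18 receptor-type tyrosine phosphatase genes at 7 dpi, a family set up after the values were seen. It was at 2258 FPKM in ApoE3 and 2149 in ApoE4, with Ptprd next at 1773 and 1689, and the ratio of Ptprs to Ptprd was 1.27 in both. None of the 18 was past the fold between the genotypes at 7 dpi (median centred ratio 0.07), where 3.76% of all genes were past it as higher in ApoE3 and 4.82% as higher in ApoE4. At 21 dpi 13 of them had a value, with a median of -0.01, Ptprf past the fold as higher in ApoE3, and Ptprz1 and Ptprv past it as higher in ApoE4, where 7.46% and 8.06% of all genes were. Without centring none was past the fold as higher in ApoE3 and 8 were as higher in ApoE4, Ptprz1 and Ptprv among them, beside 2.01% and 58.9% of all genes, and 12 of the 13 were lower in ApoE3. Ptprz1, a phosphatase of astrocytes and oligodendrocyte precursors that is itself a chondroitin sulfate proteoglycan, was at 196 and 190.4 FPKM in ApoE3 and ApoE4 at 7 dpi, and at 78.0 and 153 at 21 dpi. Its centred ratio at 21 dpi was -0.54, beside -0.35 for the median of the astrocyte markers, whose part in it was not tested.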
